A study of Mus musculus with 10 samples.

Results

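The baseline described here is the transcriptome of retinal microglia from control animals. It comprises the 3 libraries labelled Control, chosen by that label, of 10 libraries in the series. All animals, controls included, carried the Cx3cr1GFP/+ genotype, so that green fluorescent protein (GFP) takes the place of 1 copy of Cx3cr1, the fractalkine receptor gene. After perfusion, the 2 retinas of each mouse were combined and dissociated with papain, and GFP-positive cells that excluded the dead-cell dye DAPI were sorted. The controls are littermates of mice given streptozotocin (STZ), which are not used in the results below except in 1 alternative estimate of spread. The labels give neither their age or sex nor any vehicle treatment. The reporter also marks other myeloid cells that express Cx3cr1, so the gate is not specific to microglia, and every level below belongs to animals with a single intact Cx3cr1 copy.

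Microglia are the resident macrophages of the retina and brain. They depend on signalling through the receptor Csf1r, survey the tissue with motile processes guided by purinergic and chemokine receptors, and clear debris and synapses by phagocytosis and lysosomal digestion. Factors such as PU.1 (encoded by Spi1), Irf8 and Sall1 maintain their identity.

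The gene table holds raw counts for 55487 genes. Library totals were 47021256 reads in Control 1, 45656309 in Control 2 and 54312248 in Control 3. Levels of different genes are compared as TPM, in which reads are divided by exon length and scaled to a common total. The spread of a gene between libraries is its standard deviation (SD) over its mean (CV), computed on CPM, the reads of a gene scaled to a common total with TMM factors. A gene is called detected at 1 CPM or more in each of the 3 libraries. By that rule 11851 genes (21.4%) were detected, of which 10430 were among the 21936 protein-coding genes (47.5%). Each count below of detected members of a list or family stands beside these shares, and the lists were chosen by hand. No read fell on 26550 genes, including 4980 protein-coding genes (22.7%). A further 6526 protein-coding genes had a read but were not detected. Values in sets of 3 follow the order Control 1, Control 2 and Control 3, and means carry the SD over these 3 animals (n = 3). No test was run, since 1 group is described.

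The 4 microglial markers were among the most abundant transcripts of every library. Csf1r, the receptor for colony stimulating factor 1 and interleukin 34, stood at 4860.1, 4454 and 4874 TPM. Cst3 (chromosome 2, 148871722 to 148875692, minus strand, GRCm38), a secreted inhibitor of cathepsins, stood at 47400.5, 38349 and 51184 TPM and was the highest nuclear protein-coding gene in each library. P2ry12 (chromosome 3, 59216272 to 59262871, minus strand), the ADP receptor that directs microglial processes, stood at 7092, 4982 and 6636 TPM. Its lowest value was in Control 2, while the other two libraries lay close together. Tmem119 (chromosome 5, 113793729 to 113800516, minus strand), a membrane protein that marks resident microglia, stood at 4826, 5371 and 4925 TPM and varied by 7.14%. Exons of Hmgxb3 overlap 15.1% of the Csf1r exons on the opposite strand, and reads of both genes cannot be told apart in libraries that do not mark strand. A wider list of homeostatic microglial genes was detected in full (27 of 27) and took 8.53% ± 0.587 of reads. The labelled cell type and the marker genes accord in all 3 libraries.

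A small set of genes made up much of the RNA. The single most abundant gene held 4.56% ± 0.659 of TPM, the top 10 held 20.4% ± 0.770, the top 100 held 47.3% ± 1.02 and the top 1000 held 75.7% ± 0.415. Counted from the most abundant gene down, 50% of TPM was reached with 128, 135 and 117 genes. The order depends on length, as Actb led by reads, with 3.43% of them, followed by Cst3 with 2.20% and Ctss with 1.47%. Nuclear protein-coding genes took 94.0% ± 0.211 of reads. Mitochondrial protein genes took 1.502% ± 0.0807, mitochondrial ribosomal RNA 0.516% ± 0.0791, annotated nuclear ribosomal RNA genes 2.10% ± 0.0999 and processed pseudogenes 0.687% ± 0.0715.

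**Figure D1:**
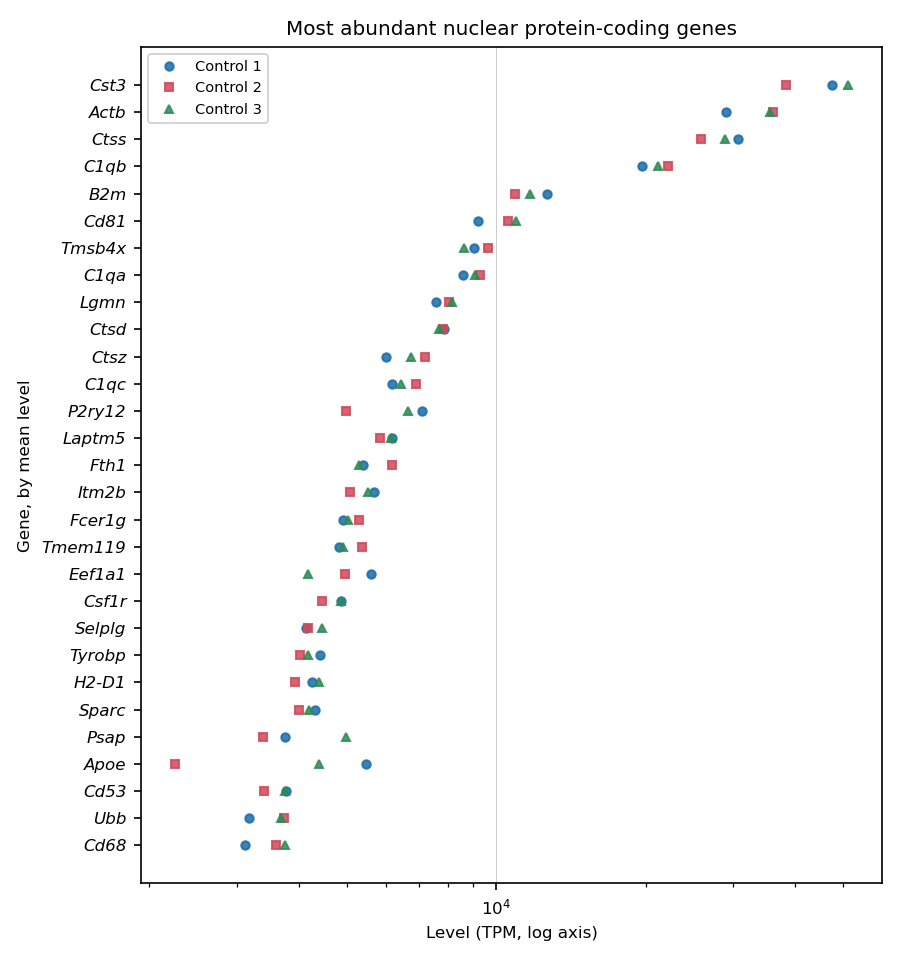
Nuclear protein-coding genes among the 30 with the highest mean level, 1 row per gene, with the level in TPM on a log axis and 1 symbol per Control library. Cst3 lies above all others in each library, and Apoe, at 5477, 2252 and 4396 TPM, shows the widest separation of symbols among the genes drawn.

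Enzymes and membrane proteins of the lysosome filled many of these 30 places. Cathepsin S (Ctss, chromosome 3, 95526786 to 95556403, plus strand), a protease that works at neutral as well as acid pH, stood at 30709, 25866 and 28882 TPM. Cathepsin D (Ctsd, chromosome 7, 142375911 to 142388038, minus strand), an aspartic protease, stood at 7868, 7801 and 7668 TPM and varied by 1.36%, the lowest CV of the 30. The predicted gene Gm49369 shares 34.4% of the Ctsd exons on the same strand, so its reads may be split. Lgmn, an asparaginyl endopeptidase, averaged 7919.9 ± 311 TPM and Ctsz, a carboxypeptidase, 6641 ± 599.9 TPM. Laptm5, a lysosomal membrane protein of blood cells, averaged 6051 ± 177 TPM, and Cd68, a heavily glycosylated lysosomal membrane protein, 3497 ± 333 TPM. Of the listed lysosomal genes 50 of 51 were detected, and they took 8.20% ± 0.218 of reads. Their median CV was 8.23%, beside 10.6% for all detected protein-coding genes at 100 to 1000 CPM, 9.04% for those above 1000 CPM and 19.0% at any level.

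Genes of the actin cytoskeleton also stood high. Actb, cytoplasmic beta-actin, stood at 28990.5, 36149 and 35555 TPM, lowest in Control 1. Tmsb4x, the peptide that sequesters actin monomers, stood at 9036, 9644 and 8623 TPM. Pfn1, Aif1 (the microglial marker IBA1), Coro1a and Cfl1, all regulators of actin filaments, averaged 1463, 1061, 958 and 852 TPM. The class took 5.44% ± 0.521 of reads, and Actb alone held 61.7% of its TPM.

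The MHC class I pathway, which shows peptides to cytotoxic T cells, was detected in full (18 of 18). B2m, the light chain of every class I molecule, stood at 12668, 10893 and 11699 TPM, and the heavy chain gene H2-D1 stood at 4264, 3940.1 and 4397 TPM. H2-K1 averaged 603 ± 3.28 TPM. H2-D1 and H2-K1 are near-identical in parts, and the split of reads between such paralogs is uncertain. The class took 1.28, 1.31 and 1.31% of reads in the 3 libraries, which lay close together.

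Genes of iron storage and translation filled other places near the top. Fth1, the ferritin heavy chain, averaged 5619 ± 474 TPM, and Eef1a1, which brings aminoacyl-tRNA to the ribosome, 4909 ± 714 TPM. Of cytosolic ribosomal protein genes 78 of 83 were detected, with 3.43, 3.97 and 3.26% of reads. Control 2 was highest for 74 of the 78 detected members, beside 31.8% of all detected protein-coding genes. Glycolysis genes (18 of 18 detected) took 0.693% ± 0.0519 of reads, led by Aldoa at 1076 ± 125 TPM and Ldhb at 1061 ± 14.3 TPM. Among long noncoding RNAs, 385 of 9956 (3.87%) were detected, beside 21.4% of all genes. Malat1, a nuclear speckle RNA, stood at 567, 466 and 655 TPM, and Mir142hg, the host transcript of a blood-cell microRNA, at 717, 362 and 427 TPM, highest in Control 1. The 2 predicted genes Gm10134 and Gm10076 stood higher, at 1099 and 842 TPM.

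Receptors were detected more often than protein-coding genes at large. Over the receptor, adhesion and channel lists 221 of 314 members (70.4%) were detected, beside 47.5% of protein-coding genes, with a median level of 59.8 TPM among the detected members, beside 13.6 TPM. The lists hold genes chosen for microglia, so these shares describe the lists and not receptors in general.

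Of the purinergic receptors, which sense extracellular nucleotides and adenosine, 10 of 19 were detected, beside 47.5% of all protein-coding genes. The ADP receptors stood above the rest. P2ry12 was followed by P2ry13, a second ADP receptor, at 2972, 2329 and 2782 TPM. P2ry6, the UDP receptor linked to phagocytosis, stood at 586, 453 and 547 TPM. P2rx7, the ATP-gated channel upstream of the inflammasome, stood at 111, 83.7 and 118 TPM. The ranges of P2ry12, P2ry13, P2ry6 and P2rx7 did not overlap, so this order was the same in each library. The adenosine receptor Adora3 and the channel P2rx4 averaged 84.9 ± 10.8 and 64.3 ± 7.29 TPM. Tmigd3 shares 20.9% of the Adora3 exons on the same strand. P2ry4 and P2rx2 had no read, P2rx3 had 3 and the adenosine receptor Adora2a 2 over the 3 libraries.

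Of 30 listed receptors for chemoattractants 9 were detected, beside 47.5% of all protein-coding genes. Cx3cr1, the fractalkine receptor, stood at 2214, 2042 and 2275 TPM from its single intact copy and any transcript of the reporter allele that is counted with it. C5ar1, the receptor for the complement fragment C5a, stood at 887, 976 and 904 TPM and C3ar1, the C3a receptor, at 482, 477 and 420.5 TPM. Each of these 3 varied by less than 7% between libraries. C5ar2, a second receptor for C5a, averaged 98.1 ± 17.8 TPM and Ccr1 52.9 ± 13.4 TPM. Cxcr1 and Fpr3 had no read. Cxcr2, the neutrophil receptor, Ackr2 and Ackr3 had 2 reads each, and Ccr4 had 1. Outside the naming rule and chosen after its values were seen, the monocyte receptor Ccr2 stood at 1.54, 1.69 and 1.21 TPM.

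Cytokine and growth factor receptors were detected in 43 of 57 cases. Below Csf1r stood Ifngr1, a chain of the interferon-gamma receptor, at 1306, 1012 and 1211 TPM. Tgfbr1, the signalling receptor for TGF-beta, which maintains microglial identity, stood at 462, 328 and 326 TPM with the highest value in Control 1. Csf3r, the receptor for granulocyte colony stimulating factor, stood at 255, 229 and 308 TPM. The TNF receptor Tnfrsf1a and the second interferon-gamma receptor chain Ifngr2 averaged 249 ± 35.3 and 235 ± 19.3 TPM, and their ranges overlapped with each other and with that of Csf3r. Il5ra and the hepatocyte growth factor receptor Met had 2 and 3 reads in all.

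Of the pattern recognition receptors, 26 of 32 were detected. Cd14, the coreceptor that passes lipopolysaccharide to Tlr4, stood at 1669, 1437 and 1814 TPM. Ly86, the secreted partner of the Tlr4-like receptor Cd180, stood at 1659, 1677 and 1407 TPM, and Sting1, the adaptor for cytosolic DNA, at 497, 437 and 470.1 TPM. Tlr2, which binds bacterial lipopeptides, and Tlr13, which binds bacterial ribosomal RNA, led the toll-like receptors (10 of 12 detected) at 206 ± 39.5 and 137 ± 18.7 TPM. Clec7a, the beta-glucan receptor, averaged 278 ± 33.8 TPM. Nlrp12 had no read.

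Phagocytic and Fc receptors and their adaptors were detected in 28 of 35 cases. Fcer1g, the signalling chain shared by activating Fc receptors, stood at 4914, 5303 and 5028 TPM. Tyrobp (DAP12), the adaptor of Trem2, stood at 4419, 4026 and 4186 TPM and varied by 3.06%. Trem2, a receptor for lipids and apolipoproteins, stood at 845, 715 and 872 TPM, below Tyrobp in every library. Fcgr3, a low-affinity IgG receptor, averaged 1692 ± 233 TPM, and Itgb2, the beta chain of complement receptor 3, 1028 ± 78.4 TPM. Marco, a scavenger receptor of other tissue macrophages, and Fcer1a, the IgE-binding chain of mast cells, had no read.

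Inhibitory and adhesion receptors were detected in 33 of 38 cases. Selplg, the ligand of selectins, stood at 4131, 4175 and 4460.4 TPM, Cd53, a tetraspanin of leukocytes, at 3765, 3404 and 3759.6 TPM, and Vsir (VISTA), an inhibitory ligand of T cells, at 1027, 963 and 1006 TPM. These 3 varied by 6.13%, 5.41% and 2.65%. Siglech, a sialic-acid-binding lectin of microglia and plasmacytoid dendritic cells, averaged 615 ± 86.8 TPM, and the small glycoprotein Cd52 676 ± 94.6 TPM.

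Receptors for neurotransmitters, lipids and hormones were detected in 25 of 51 cases, near the 47.5% of all protein-coding genes. Gpr34, a receptor for lysophosphatidylserine, stood at 3262, 2629 and 3163 TPM and exceeded every other member of this list in each library. Adgrg1 and Adgre1 (F4/80), which are adhesion G protein-coupled receptors, averaged 601 ± 35.6 and 542 ± 45.7 TPM. Gpr183, which senses oxysterols, stood at 475 ± 67.5 TPM. Ptafr, the platelet-activating factor receptor, stood at 458, 334 and 496 TPM. Gpr183 and Ptafr overlapped in range. The serotonin receptor Htr7, the cannabinoid receptor Cnr1 and the nuclear receptor Pparg had no read, and none of the ionotropic glutamate receptor genes (0 of 18) was detected.

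Channels and transporters were detected in 34 of 39 cases. Slc2a5, which carries fructose, stood at 648, 636 and 852 TPM, highest in Control 3. Clic1 averaged 623 ± 53.3 TPM and Slc11a1, the metal transporter of phagosomes, 484 ± 45.7 TPM. Of all potassium channel genes 14 of 94 were detected, led by Kcnk13, a background potassium channel of microglia, at 94.1, 88.7 and 93.7 TPM.

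**Figure D2:**
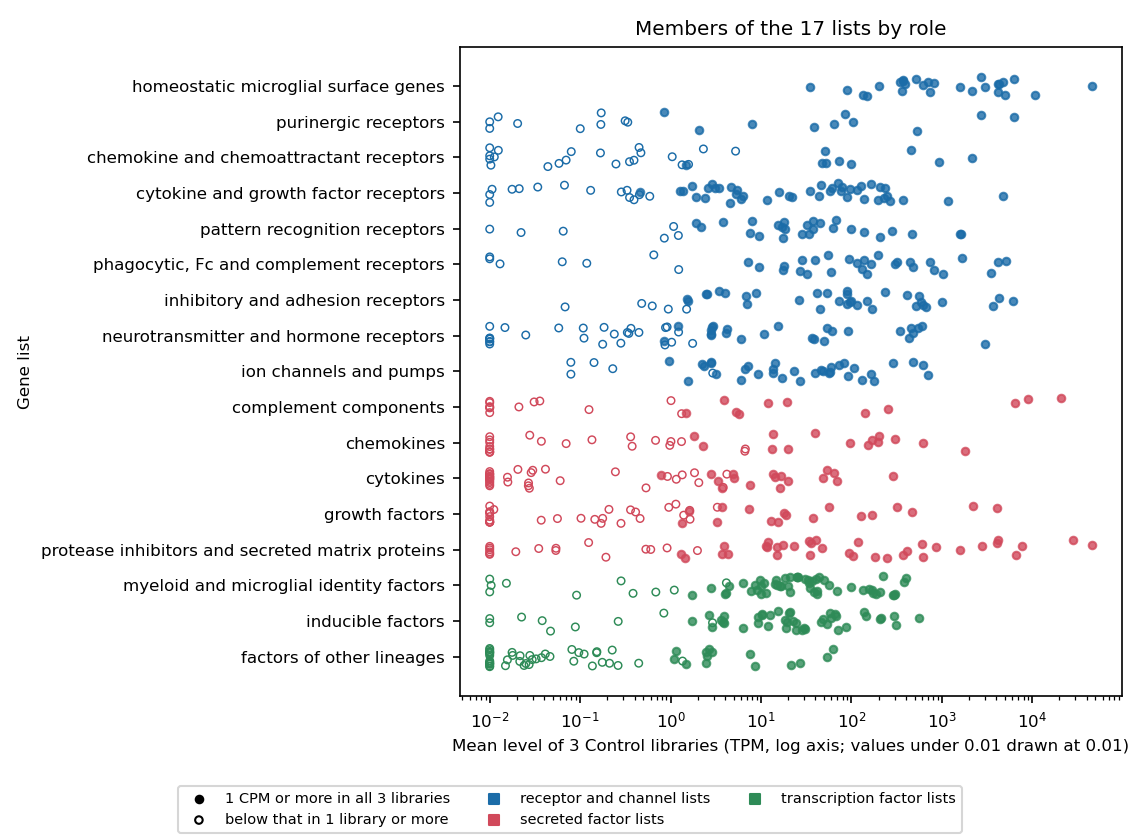
Mean level of each member of the receptor, secreted factor and transcription factor lists in TPM on a log axis, 1 point per gene and 1 row per list, over the 3 Control libraries. Filled points are detected genes and open points are not detected. Receptor lists hold mostly filled points (221 of 314), the secreted factor lists fewer (93 of 204), and the factors of other lineages mostly open ones (42 of 56 were not detected). Of all protein-coding genes 47.5% were detected.

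Secreted factors ranged from very abundant genes to genes without a read. Of 204 members 93 (45.6%) were detected, close to the 47.5% of all protein-coding genes, 56 had 3 reads or fewer and 35 had none. Detected members had a median CV of 22.5%, beside 13.5% for receptors, 16.7% for transcription factors and 19.0% for all detected protein-coding genes.

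Within complement, the 3 chains of C1q, the molecule that starts the classical pathway, stood far above the other components. C1qb (chromosome 4, 136880129 to 136886187, minus strand) stood at 19672, 22196 and 21220.0 TPM. C1qa (chromosome 4, 136895917 to 136898803, minus strand) stood at 8572, 9269 and 9078 TPM and C1qc (chromosome 4, 136889804 to 136893065, minus strand) at 6177, 6903 and 6427 TPM. The 3 genes lie side by side on chromosome 4, and all were lowest in Control 1 and highest in Control 2. Clu, a chaperone that blocks the terminal complex, stood at 152, 88.1 and 180.2 TPM. Of the whole list 11 of 23 were detected, near the 47.5% of all protein-coding genes. Cfb, C7, C8a and Mbl2 had no read, C6 and C9 had 2 and 3, and C1s1, a protease that C1q needs as a partner, had 1. Named after its values were seen, C3, the central component that all pathways cleave, stood at 2.54, 1.09 and 0.865 TPM.

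Of 35 chemokines 14 were detected, beside 47.5% of all protein-coding genes. Ccl12, a ligand of Ccr2, stood at 1059, 2813 and 1479 TPM and was highest in Control 2. Ccl6 stood at 595, 657 and 586 TPM and Ccl5 at 281, 272 and 347 TPM. Ccl4 and Ccl3, the MIP-1 chemokines, stood at 156, 237 and 200.1 and 189, 142 and 177 TPM. Their ranges overlapped, and Ccl4 was above Ccl3 in Controls 2 and 3 alone. Pf4, also a platelet and border macrophage gene, stood at 329, 76.8 and 208 TPM. Ccl1, Ccl17, Ccl19, Ccl20, Cxcl5, Ppbp and Xcl1 had no read.

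Of 51 listed cytokines 17 were detected, beside 47.5% of all protein-coding genes. Of the 51, 23 had 3 reads or fewer, beside 6928 of 21936 protein-coding genes. Mif, the macrophage migration inhibitory factor, stood at 242, 355 and 278 TPM. Il1a, an alarmin of the interleukin 1 family, stood at 86.8, 55.6 and 68.0 TPM, and Il18, which inflammasomes bring to its mature form, at 77.1, 64.8 and 51.3 TPM. Tnfsf13b (BAFF), a survival factor of B cells, and Il16 averaged 53.5 ± 4.06 and 49.1 ± 10.2 TPM. The interleukins Il5, Il7, Il10, Il12a, Il17a, Il17f, Il19, Il22 and Il24, with Ifng, Csf2 and Tnfsf11, had no read. Il34, the second ligand of Csf1r, had 1. Named after their values were seen, Il1b, Tnf and Il6, the classical inflammatory cytokines, stood at 3.14, 4.84 and 2.00 TPM, 8.06, 4.13 and 2.60 TPM and 3.56, 3.92 and 3.70 TPM. Of 18 type I interferon genes none was detected and 16 had no read.

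Growth factors and related proteins were detected in 17 of 45 cases, beside 47.5% of all protein-coding genes. Psap, the precursor of the saposins, stood at 3761, 3389 and 4978 TPM, highest in Control 3, and Grn, a lysosomal growth factor, at 2009, 2334 and 2282 TPM. Pros1 and Gas6, ligands of the TAM receptors that clear dying cells, averaged 469 ± 7.91 and 170.1 ± 29.3 TPM. Ang, a ribonuclease, averaged 320.3 ± 13.2 TPM and shares 18.2% of its exons with Rnase4 on the same strand, and Sema4d averaged 129 ± 7.68 TPM. The vascular factor Vegfc, the neurotrophic factors Ntf3, Gdnf and Cntf, and Areg and Bmp6 had no read. None of the 19 Wnt genes was detected.

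Among secreted proteases, inhibitors and matrix proteins 35 of 51 were detected. Sparc, a collagen-binding matrix protein, stood at 4320.3, 4015 and 4207 TPM and varied by 2.82%. Apoe, the lipid carrier of the central nervous system, stood at 5477, 2252 and 4396 TPM, and its value in Control 2 was the lowest. Serpina3n, Timp1, Apod, Chil3 and Col3a1 had no read.

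Members of the transcription factor lists were detected in 108 of 169 cases (63.9%), beside 47.5% of protein-coding genes. The detected members had a median level of 22.1 TPM, below the 59.8 TPM of receptors and the 35.8 TPM of secreted factors. That median was 13.6 TPM for all detected protein-coding genes. Myeloid and microglial factors were detected in 52 of 62 cases, inducible factors in 42 of 51 and factors of other lineages in 14 of 56. The members were picked for these lists, so the shares describe the lists and not transcription factors in general.

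Bhlhe41, a repressor of the basic helix-loop-helix family, led the identity factors at 394, 355 and 458 TPM. Gm43909 overlaps 19.1% of its exons on the opposite strand. Irf5, a factor of toll-like receptor signalling, stood at 408, 351 and 390.4 TPM and overlapped Bhlhe41 in range. Irf8, which microglia need to mature, stood at 345, 278 and 279 TPM, and Spi1 (PU.1), the main factor of the myeloid lineage, at 323, 272 and 299.8 TPM. Xbp1, a factor of the unfolded protein response, stood at 278, 296 and 293 TPM. Irf8, Spi1 and Xbp1 overlapped in range. Nfe2l2 (NRF2), which drives antioxidant genes, averaged 223 ± 17.2 TPM. Tfec and Gfi1 had no read, and Cebpe, a factor of granulocytes, and Gfi1b had 1 each. Sall1, a microglial factor named after its values were seen, stood at 148, 121 and 135 TPM.

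The list of inducible factors also holds regulators that are not themselves transcription factors, such as Nfkbia and Btg2. It was led by Nfkbia, the inhibitor that restrains NF-kB, at 497, 607 and 559 TPM. Btg2, an antiproliferative immediate early gene, stood at 397, 225 and 323 TPM and Jun, a subunit of AP-1, at 409, 228 and 256 TPM. Both were highest in Control 1 and lowest in Control 2. Klf6 and Junb averaged 210.0 ± 19.6 and 206 ± 17.5 TPM, and Stat6, the signal transducer of interleukin 4, 147 ± 10.6 TPM. Fos, another AP-1 subunit, stood at 60.2, 15.2 and 15.4 TPM, about 4 times higher in Control 1. Fosl1 had no read, and Egr3 and Egr4 had 1 and 3.

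Factors of other lineages were led by genes of photoreceptors. Crx, which drives photoreceptor genes, stood at 69.5, 56.0 and 60.2 TPM, Nr2e3, which represses cone genes in rods, at 55.8, 59.1 and 45.8 TPM, and Nrl, which specifies rods, at 20.4, 24.4 and 19.6 TPM. Neurod1 averaged 26.8 ± 3.61 TPM and Otx2 7.62 ± 2.04 TPM. Olig2, Pax5, Erg, Sox17, Foxd1, Myod1, Nkx2-1 and Cdx2, which mark oligodendrocyte, B cell, endothelial, stromal, muscle, lung and gut lineages, had no read.

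The absence of a read limits a gene to few transcripts, not to none. A count of 0 over the 146989813 reads of the 3 libraries allows up to 3 reads, or 0.0204 CPM, by counting error alone, and amplified reads without molecular identifiers are not independent molecules. Some large families were rarely or never detected. Over all genes 21.4% were detected, and over protein-coding genes 47.5% were detected and 22.7% had no read. Of 1137 olfactory receptor genes 2 were detected and 810 had no read, of 351 vomeronasal receptors none was detected and 269 had no read, and of 39 Hox genes none was detected and 14 had no read. Immunoglobulin variable segments (0 of 216 detected) and T cell receptor variable segments (0 of 144 detected) had a read on 1 gene each. No GATA factor (0 of 6), no T-box factor (0 of 13) and no taste receptor (0 of 38) was detected. Xist, the transcript of the inactive X chromosome, had no read, and the Y-linked genes Eif2s3y, Ddx3y, Uty and Kdm5d were detected in all 3 libraries.

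The share of promoters that hold a given word differed between detected genes and genes without a read. Promoters were read as the 250 bases before the gene start from RefSeq (GRCm38.p6), in which 16793 of 21936 protein-coding genes (76.6%) matched, and words were searched on both strands. RefSeq and the gene annotation used above do not always place the start at the same base, so the windows of Cst3, Ctsd and C1qc overlap the gene bounds given above. The GC box GGGCGG was held by 60.5% of detected genes, 39.2% of genes with a read that were not detected and 12.2% of genes with no read, beside 44.2% of all matched genes and 32.7% of all 32851 RefSeq promoters. The TATA word TATAAA went the other way, at 6.03%, 12.5% and 26.2%, beside 12.1% of matched genes and 12.4% of RefSeq promoters. The TFEB word TCACGTGA, bound by the lysosomal regulators TFEB and TFE3, was held by 1.72%, 0.437% and 0.226%, beside 1.04% of matched genes and 0.785% of RefSeq promoters. The PU.1 word GAGGAAGT, of the ETS family type, was held by 2.60%, 1.97% and 1.75%, beside 2.24% of matched genes and 2.44% of RefSeq promoters. TGAGTCA, the AP-1 word, was held by 2.70%, 4.28% and 6.77%, beside 4.01% of matched genes and 4.46% of RefSeq promoters. For the GC box, the TATA word and the AP-1 word the order did not carry on to the most abundant genes. Among the top 100 with a promoter, 49 held the GC box, 11 the TATA word, 5 the AP-1 word, 3 the PU.1 word and 2 the TFEB word. Median GC content was 60.0%, 55.2% and 44.4% in the same order, and the part of base composition in these shares was not tested. The 5 promoters below, chosen after the matches were seen, show a gene of each kind. They include the 2 most abundant secreted or lysosomal genes (Cst3, chr2:148875513-148875762, minus strand, and Ctss, chr3:95526536-95526785, plus strand). Ctsd (chr7:142387828-142388077, minus strand) is a lysosomal gene that holds the TFEB word. C1qc (chr4:136892915-136893164, minus strand) is a C1q gene that holds the PU.1 word, and Ccl20 (chr1:83116516-83116765, plus strand) is a chemokine with no read. Capitals mark the GC box, the TATA word, the TFEB word and the PU.1 word or their reverse complements, each sequence running 5′ to 3′ towards the gene.
Cst3: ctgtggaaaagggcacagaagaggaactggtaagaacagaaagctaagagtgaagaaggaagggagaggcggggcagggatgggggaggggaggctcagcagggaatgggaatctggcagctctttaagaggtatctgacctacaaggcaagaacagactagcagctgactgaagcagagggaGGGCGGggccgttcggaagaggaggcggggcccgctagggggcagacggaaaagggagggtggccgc
Ctss: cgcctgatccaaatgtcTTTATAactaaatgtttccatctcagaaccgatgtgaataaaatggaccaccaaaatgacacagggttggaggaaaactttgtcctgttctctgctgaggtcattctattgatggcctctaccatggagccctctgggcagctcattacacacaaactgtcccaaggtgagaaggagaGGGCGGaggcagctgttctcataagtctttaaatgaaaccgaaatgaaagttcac
Ctsd: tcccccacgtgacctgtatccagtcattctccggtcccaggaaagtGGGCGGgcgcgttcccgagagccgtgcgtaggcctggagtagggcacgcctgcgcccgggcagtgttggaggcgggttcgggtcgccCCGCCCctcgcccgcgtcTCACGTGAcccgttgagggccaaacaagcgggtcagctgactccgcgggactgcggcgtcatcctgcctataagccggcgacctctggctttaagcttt
C1qc: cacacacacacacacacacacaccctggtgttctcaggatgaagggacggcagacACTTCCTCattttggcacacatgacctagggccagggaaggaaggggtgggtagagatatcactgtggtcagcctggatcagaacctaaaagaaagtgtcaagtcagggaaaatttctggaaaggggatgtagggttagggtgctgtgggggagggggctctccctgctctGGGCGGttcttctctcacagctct
Ccl20: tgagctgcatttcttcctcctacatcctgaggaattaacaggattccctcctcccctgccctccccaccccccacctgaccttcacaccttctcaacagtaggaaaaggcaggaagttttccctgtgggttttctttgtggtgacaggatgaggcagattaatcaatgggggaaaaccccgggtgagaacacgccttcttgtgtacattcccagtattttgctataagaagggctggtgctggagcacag
Cst3 holds 1 GC box, Ctss 1 GC box and 1 TATA word on the other strand, Ctsd 2 GC boxes and 1 TFEB word, C1qc 1 GC box and 1 PU.1 word on the other strand, and Ccl20 none of these words. A match is a run of letters and not a shown binding site.

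Markers of other cells were present beside the microglial genes. Bulk libraries cannot tell fewer cells of a type from less RNA per cell, and the part of these markers in any level above was not tested. All rod markers were detected (16 of 16), and the list took 1.31, 1.44 and 1.32% of reads. Gnat1, the rod transducin, stood at 1825, 1702 and 1302 TPM and Rom1, a disc protein, at 971, 1119.6 and 898 TPM. Gnb1, the highest listed gene at 2528 ± 259.8 TPM and 0.411% of reads, is also expressed by other cells. The share of the rod list therefore need not come from rods alone. Cone markers were detected in 6 of 10 cases, and 79.1% of their summed TPM came from Gngt2, so that the rest summed to 54.8 ± 15.0 TPM. Bipolar markers summed to 59.8, 48.6 and 83.2 TPM, and markers of amacrine, horizontal and ganglion cells to 109, 99.3 and 95.8 TPM. The list of Müller glia and astrocytes summed to 6489.7, 2927 and 5403 TPM, of which 81.8% was Apoe, which microglia also express. Without Apoe it averaged 899 ± 193 TPM, led by Glul at 483 ± 71.8 TPM. Rlbp1, a retinoid-binding protein of Müller glia, stood at 93.4, 50.3 and 96.1 TPM.

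Other myeloid and blood cells were represented unevenly. Border macrophage markers were detected in 11 of 13 cases and summed to 635, 219.9 and 418 TPM. Mrc1 (CD206) stood at 43.1, 7.04 and 37.1 TPM, F13a1 at 45.9, 7.93 and 20.9 TPM and Lyve1 at 29.6, 5.13 and 14.3 TPM. All 3 were highest in Control 1 and lowest in Control 2, while Cd209f had no read. Neutrophil markers were not detected apart from Csf3r, and the rest summed to 1.51 ± 0.627 TPM. Markers of T and NK cells were not detected by the rule used (0 of 16) and summed to 4.32, 1.30 and 39.8 TPM. Gzma, the granzyme of cytotoxic cells, had 0, 0 and 413 reads and Nkg7 0, 0 and 252, both in Control 3 alone. Ighm, the heavy chain of IgM, stood at 1044, 965 and 1155 TPM, whereas Cd79a and Ms4a1, which define B cells, had 16 and 2 reads, Igkc had 6 and Pax5 none. Cd79b, a signalling chain of the B cell receptor, stood at 81.5, 71.7 and 79.5 TPM. Dendritic cell markers other than Siglech, Bst2, Batf3 and Zbtb46 were not detected. Mast cell markers (0 of 9 detected) summed to 0.0622, 0.164 and 0.0575 TPM. Endothelial markers summed to 13.7, 13.8 and 8.25 TPM. Haemoglobin Hbb-bs stood at 91.5, 27.5 and 0 TPM, highest in Control 1 and without a read in Control 3.

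**Figure D3:**
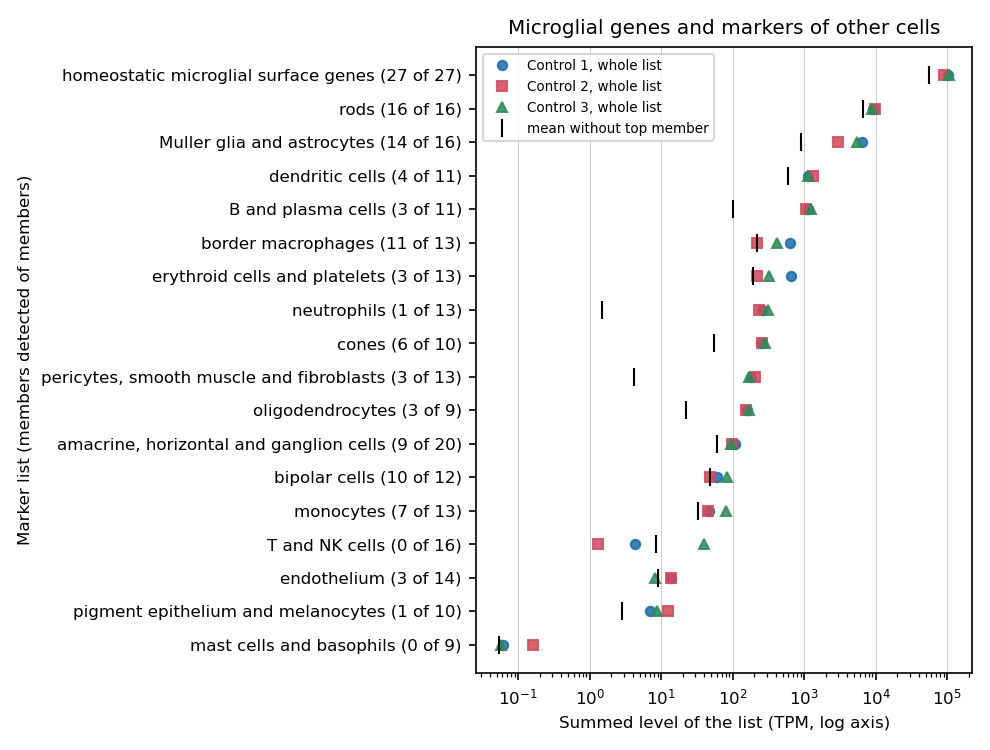
Summed level of homeostatic microglial genes and of each marker list of other cells in TPM on a log axis, 1 symbol per Control library, with a tick for the mean of the list without its most abundant member. The microglial list, at 100313 ± 9307 TPM, exceeds the rod list, at 9159 ± 448 TPM, and several lists fall far to the left once their leading gene is left out, as with Csf3r among neutrophil markers.

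Spread between the 3 libraries was modest for abundant genes and wide for scarce ones. Each library came from 1 animal with no repeat library, so spread from animals, sorting and amplification cannot be told apart. The median CV over detected protein-coding genes was 19.0%, beside 2.88% for counting error alone. It was 34.3% for the 497 genes at 1 to 3 CPM, 34.8% for 2077 genes at 3 to 10 CPM and 22.4% for 3341 genes at 10 to 30 CPM. It was 14.9% for 2938 genes at 30 to 100 CPM, 10.6% for 1469 genes at 100 to 1000 CPM and 9.04% for 108 genes above 1000 CPM. Genes below 1 CPM in any library are not in these medians. That rule limits how wide the CV can be in the lowest ranges, most of all at 1 to 3 CPM. The edgeR common biological coefficient of variation was 0.3505 over 14354 genes. Pairs of libraries correlated at 0.963 to 0.966 on log2(CPM + 1) across 11851 genes, which are not independent replicates, and 9.13% to 10.3% of these genes differed by 2-fold or more between the libraries of a pair.

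**Figure D4:**
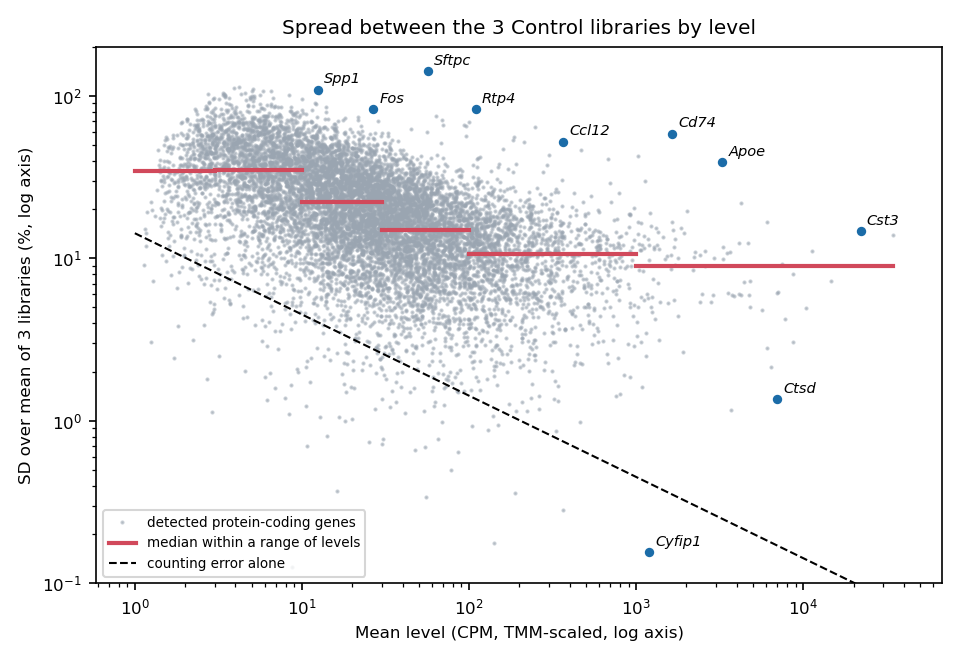
CV over the 3 Control libraries against mean CPM for each detected protein-coding gene, both on log axes, with the median CV in ranges of CPM as bars and counting error alone as a dashed line. The medians are 34.3% and 34.8% in the lowest ranges and fall to 9.04% in the highest, and Sftpc, Cd74, Apoe, Ccl12 and Rtp4 lie above the median of their range.

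Among genes with a mean of 10 CPM or more, the 20 with the widest spread had CVs of 71.7% to 142%. Sftpc, a surfactant protein of lung epithelium, stood at 50.0, 4.19 and 374 TPM with a CV of 142%. Spp1 (osteopontin) stood at 5.99, 8.85 and 44.2 TPM, and Control 3 was highest for both. Cfp, properdin of the complement system, stood at 43.4, 5.94 and 9.33 TPM, Nfkbiz, an atypical NF-kB inhibitor, at 13.2, 3.30 and 2.61 TPM and Cd93 at 9.98, 2.44 and 2.13 TPM. These 3 were highest in Control 1, as was Fos. Rtp4 and Ifi206, both induced by interferon, stood at 71.0, 261 and 70.9 and 8.19, 23.4 and 4.31 TPM and were highest in Control 2, as was Mcm2, a DNA replication helicase subunit, at 3.02, 14.8 and 6.69 TPM. F13a1, Lyve1, Fos and Hbb-bs, given above, were in the same group of 20. Ccdc9, Rrp12, Fbxw17, Aplp1, Nabp1, Dhx35, Tmem38a and Spata5 completed it. Across the 200 genes with the highest CV of 7742 at this level, the highest library was Control 1 for 73, Control 2 for 63 and Control 3 for 64, so the 3 libraries had similar shares.

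Some genes had an SD under 1% of their mean on the CPM scale. Cyfip1, a part of the actin regulator WAVE, stood at 1186, 1189 and 1189 CPM with a CV of 0.156%. Padi2, which converts arginine to citrulline in proteins, stood at 141, 141 and 141 CPM and Lcp2, an adaptor of immune receptors, at 364, 366 and 364 CPM. The TPM scale, whose library totals are not TMM-scaled, spread these genes more, with Cyfip1 at 268, 259 and 257 TPM. Naa50, Nsun5, Rab27a, Nrm, Stx12, Necap1 and Coprs completed the 10, with CVs up to 0.703%. These 10 of 7742 genes were picked for this value, from 3 values each.

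The summed levels of some gene classes differed between the 3 libraries, a description with no test. MHC class II genes, which show peptides to helper T cells, took 0.566, 0.281 and 0.419% of reads. Cd74, the invariant chain, stood at 4137, 1029 and 2546 TPM, H2-Ab1 at 709.9, 245 and 497 TPM and H2-Eb1 at 381, 106 and 257 TPM. These 3 were highest in Control 1 and lowest in Control 2, while H2-DMa, which loads peptides onto class II molecules, was lowest in Control 1 and highest in Control 3, at 394, 437 and 465 TPM. Border macrophage markers and Apoe ran in the same order, and whether the class II difference comes with those cells was not tested. Interferon-stimulated genes (27 of 30 detected) took 0.116, 0.243 and 0.125% of reads, and Control 2 was highest for 21 of the 27 detected members, again beside 31.8%. Ifitm3, a membrane protein that blocks virus entry, stood at 503, 1294 and 668 TPM, Ifi27l2a at 188, 696 and 279 TPM and Isg15, a ubiquitin-like protein, at 69.7, 191 and 141 TPM. Chaperones took 0.909, 1.24 and 0.904% of reads and were also highest in Control 2, as was Hsp90ab1, at 693, 1324 and 656 TPM. The cell cycle list (25 of 35 detected) summed to 373, 489 and 425 TPM, led by Cdk4, Mcm3 and Ccnd1 at 69.1, 65.1 and 54.3 TPM. All 26 of 26 genes of the disease-associated microglia list were detected at baseline, beside 47.5% of all protein-coding genes. B2m, Ctsd, Ctsz and Tyrobp, general microglial genes, stood highest among them. Detection starts at 1 CPM, and whether any cells were in a disease-associated state was not tested.

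**Figure D5:**
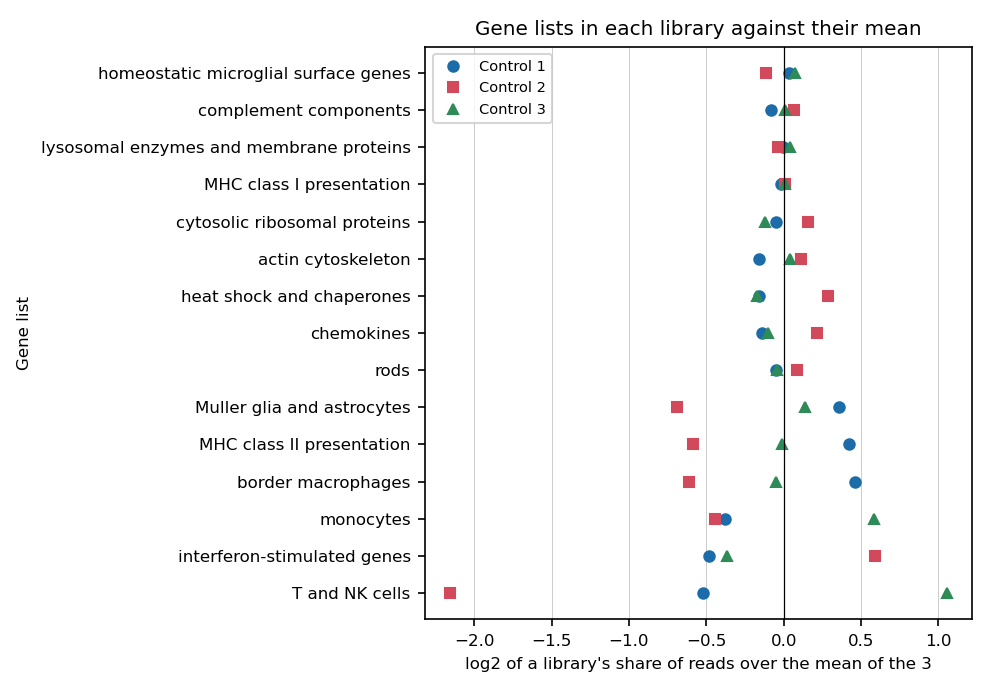
Share of reads of each gene list in each Control library as log2 of the ratio to the mean of the 3, 1 symbol per library. Microglial, lysosomal and MHC class I lists lie near 0 in all 3 libraries, MHC class II and border macrophage lists are highest in Control 1, interferon-stimulated genes are highest in Control 2, and the T and NK cell list, which is near 0 TPM in Controls 1 and 2, is highest in Control 3.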

How the data were processed

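RNA of GFP-positive cells sorted from pooled retinas, 1 animal per library, was turned into unstranded libraries from low-nanogram inputs (SMARTer Ultra Low) and sequenced in pairs, per the labels' protocols. The deposited table holds raw counts per gene, whole numbers per the file headers. Tools named in the submitters' processing notes are STAR, featureCounts of Subread, Salmon, bcl2fastq, limma and edgeR, with build GRCm38. Which of them made the deposited counts, the annotation and the handling of strand and of multiply mapped reads are not given in those sources, so reads of overlapping genes and paralogs may be shared or split. A further deposited table, which repeats the counts of part of the genes beside the authors' comparisons of STZ with Control, was not used, nor was 1 column of transcript numbers.

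Of 55774 rows, 287 repeated identifiers were dropped. CPM used TMM factors (edgeR 4.0.16, R 4.3.3) over the 3 Control libraries. TPM used the union of exons in GENCODE M21, found for 99.5% of genes, as 55227 of 55487. The biological coefficient of variation came from edgeR with an intercept alone and its own filter on low counts, and the script was checked on simulated counts. Groups come from the labels, 1 group is described and no p-value is given. Depth was 45656309 to 54312248 reads. Genes named are the 30 with the highest TPM, the 6 highest of each list or family, members with 3 reads or fewer, the 20 widest and 10 narrowest CVs at a mean of 10 CPM or more, and the 5 highest long noncoding RNAs, with predicted genes left out of all but the last. The text gives part of them, some are not reported here, and genes outside the rule are marked as chosen after their values were seen. Alternatives were another length, scaling, threshold and denominator, and each library left out. The members and lists were chosen with earlier results of these data known.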

Additional observations from a re-analysis of the deposited data

How the results depend on the processing

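No paired analysis was possible because 1 group is described and no comparison between groups was made. Counts of detected genes and of detected list members stayed within 1.5 times their value under thresholds of 0.5 and 5 CPM, other scalings and each library left out (8959 to 13041 detected genes). The share of TPM in the top 100 genes (47.3%) was 46.1% with the length of the longest transcript and 36.9% as a share of reads with no length, and 87 and 70 of the 100 genes were shared with the main list. Over reads of nuclear protein-coding genes alone, the shares rose, since the denominator is smaller. They were 8.72% for lysosomal genes, 1.93% for complement, 1.44% for the rod list, Gnb1 included, and 1.38% for MHC class I. The biological coefficient of variation (0.3505) was 0.777 with no filter on low counts and 0.3507 with library totals alone or DESeq2 size factors. It was 0.348 to 0.366 with a library left out. Over all 10 libraries, with the STZ groups included and 1 mean per group, it was 0.562 over 18919 genes. That last value is not the spread of the Control libraries alone. The median CV (19.0%) was 19.8% at a threshold of 0.5 CPM, 16.4% at 5 CPM and 15.4% to 15.8% with a library left out. With a library left out each CV rests on 2 values, and its median is lower than over 3 values of equal spread. That fall therefore cannot show dependence on a single library. The share of detected genes with GGGCGG was 61.6% at a threshold of 5 CPM, an alternative chosen after seeing the data. Among the 30 most abundant genes, the TPM of 27 moved by more than the SD with nuclear protein-coding genes as the denominator. With the longest transcript 22 did. Leaving out 1 of 3 libraries cannot shift a mean by the SD of the 3, so this measure cannot show dependence on a single library. The cause was not tested unless stated. Without a batch or age of the controls in the labels, differences between the 3 libraries cannot be told apart from such factors. Counting error had a median of 9.35% at 1 to 3 CPM, beside a median CV of 34.3%, both over detected genes only.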
